A study of Mus musculus with 9 samples.

Results

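The regions described here are the 319 autosomal CTCF peaks whose level was at least 2-fold below the control in both *Smchd1* mutants of the study. They were chosen by the measured values themselves: a peak on chromosomes 1 to 19 belonged to the set when MommeD43-GFP minus control and null minus control were each at most -1 on the log2 scale, whatever its level. The merged peak table held 225769 peaks, of which 217130 were autosomal, so the set was 0.147% of the autosomal peaks. CTCF was mapped by chromatin immunoprecipitation and sequencing (ChIP-seq) in primary neural stem cells (NSCs), grown from cortices of female C57BL/6 E14.5 embryos, with about 15 M cells per immunoprecipitation and 75-bp single-end reads. The control was 3 lines homozygous for *Smchd1-GFP*, an allele that tags the endogenous SMCHD1 protein with GFP (*Smchd1* GFP/GFP). The MommeD43-GFP group was 3 lines homozygous for the *MommeD43* point mutation remade by CRISPR on that same tagged allele (*Smchd1* MommeD43-GFP/MommeD43-GFP). The null group was 2 lines of *Smchd1* del/del cells, made in culture from floxed NSCs with a retrovirus carrying Cre and puromycin resistance followed by drug selection. The null lines therefore also differed from the control in lacking the GFP tag and in having gone through infection and selection, and the table cannot tell these apart from the deletion. A ninth library, input chromatin of a control line, has no column in the table and was not used. A CTCF ChIP-seq table holds no expression values, so the label of the cells could not be checked against marker genes.

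CTCF is a zinc finger protein that binds a long, well conserved DNA motif, halts loop extrusion by cohesin and so marks many boundaries and loop anchors of the folded genome. SMCHD1 is a non-canonical SMC protein that silences the inactive X chromosome, some imprinted genes and clustered gene families, and loss of SMCHD1 is known to alter long range chromatin contacts. The comparison asked where CTCF was lower both with the point mutant and without the protein.

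For each peak the table gives 1 value per genotype, the authors' mean over its libraries of log2 RPM (reads per 1000000 reads of the library), not divided by peak length. There is therefore no spread between libraries, no replicate test was possible and no p-value is given. Both differences subtract the same control value, so a control value that happened to be high lowers both, and the 2 mutants are not independent of each other in this set. Because a mean of logs fixes the product of the library counts, the counts behind each low value could be recovered as a product, and from it the geometric mean reads per library. Errors written as ± below are counting standard errors from those reads, and they do not cover differences between lines.

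The letters of a few peaks are given first, all from the GRCm38 genome that the table uses. No member held the core CTCF motif (a 12-base consensus searched on both strands), and 5 held its relaxed form, in which the third to the fifth base may be anything. These 5 are shown because they were the only members with a match to either form. Members were not scored for closeness to the motif. Each line gives the strand on which the motif reads forward, 5′ to 3′, with the motif match in capitals; none of the windows overlapped an annotated exon.
Near *Zfp990*, chr4:145511278-145511337, plus strand: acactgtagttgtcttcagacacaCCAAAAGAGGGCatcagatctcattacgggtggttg
Near *Gm10662*, chr7:23150550-23150609, plus strand: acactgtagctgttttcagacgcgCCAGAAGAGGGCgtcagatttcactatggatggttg
Near *Gm45492*, chr8:30036014-30036073, minus strand: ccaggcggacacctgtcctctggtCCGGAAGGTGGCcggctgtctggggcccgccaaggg
Near *2810471M01Rik*, chr11:28640068-28640127, plus strand: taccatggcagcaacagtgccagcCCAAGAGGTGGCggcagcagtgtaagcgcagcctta
No gene within 50 kb, chr11:39613893-39613952, minus strand: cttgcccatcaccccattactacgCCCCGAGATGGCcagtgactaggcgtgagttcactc

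The windows near *Zfp990* and *Gm10662* were identical at 50 of 60 bases, whereas the other 9 pairs shared 17 to 24. Both lay in peaks made mostly of sequence with copies elsewhere: 65.5% of the 32-base words sampled from the *Zfp990* peak and 96.3% of those from the *Gm10662* peak occurred at another place in the genome. The peak near *2810471M01Rik* was single copy throughout. Its level was -0.35 in the control, -1.50 in MommeD43-GFP cells and -1.52 in null cells.

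Both differences lay below -1 by more than 2 counting errors at 2 members, the firmest of the set as far as counting goes. One of them, in an intron of the lincRNA gene *4930584F24Rik* (peak chr5:26469601-26470200), is shown by its middle 300 bases, with the bases that the genome marks as interspersed or simple repeats in capitals.
Intron of *4930584F24Rik*, chr5:26469751-26470050: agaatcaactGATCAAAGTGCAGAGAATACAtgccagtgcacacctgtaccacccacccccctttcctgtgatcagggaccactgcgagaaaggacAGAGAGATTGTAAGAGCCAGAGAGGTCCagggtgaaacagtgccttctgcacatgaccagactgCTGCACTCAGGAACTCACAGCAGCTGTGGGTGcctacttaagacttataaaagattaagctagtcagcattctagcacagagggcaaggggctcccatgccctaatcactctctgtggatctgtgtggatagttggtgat

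The *4930584F24Rik* peak stood at -0.68 in the control, -2.40 in MommeD43-GFP cells and -2.45 in null cells, differences of -1.72 ± 0.32 and -1.76 ± 0.37. The mutants lay close together and well under the control.

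The last sequences are whole 300-bp peaks, shown because the product of counts required all 3 MommeD43-GFP libraries to be at 0 reads there. Repeat bases are again in capitals. The first is intergenic, 25117 bases from a start of *Gm11905*, and the second lies in an intron of *Cpq*, which encodes a carboxypeptidase.
Near *Gm11905*, chr4:26568751-26569050: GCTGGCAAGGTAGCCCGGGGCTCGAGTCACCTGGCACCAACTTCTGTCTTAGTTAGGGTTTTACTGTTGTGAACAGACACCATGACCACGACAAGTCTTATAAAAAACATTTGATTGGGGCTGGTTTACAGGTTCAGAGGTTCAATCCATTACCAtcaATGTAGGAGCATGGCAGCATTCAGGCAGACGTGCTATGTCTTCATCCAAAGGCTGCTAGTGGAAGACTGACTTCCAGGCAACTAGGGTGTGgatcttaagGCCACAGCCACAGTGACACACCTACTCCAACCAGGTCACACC
Intron of *Cpq*, chr15:33221551-33221850: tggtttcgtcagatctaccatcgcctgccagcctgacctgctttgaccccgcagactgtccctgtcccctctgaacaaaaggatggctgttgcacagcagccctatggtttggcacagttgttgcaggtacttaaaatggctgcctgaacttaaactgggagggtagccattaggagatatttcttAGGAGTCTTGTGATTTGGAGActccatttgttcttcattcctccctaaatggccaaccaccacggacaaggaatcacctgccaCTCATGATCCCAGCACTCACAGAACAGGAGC

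With a floor of 3 reads over the 3 MommeD43-GFP libraries, the peak near *Gm11905* was at least 20.8-fold lower than the control and the *Cpq* peak at least 22.9-fold lower. These limits take the control values as given. They leave out the control's own counting errors, 0.20 and 0.19 on the log2 scale. In the null the same peaks kept reads, at levels of -3.19 and -2.29 against control levels of -1.24 and -1.10. Of the 32-base words, 48.1% in the *Gm11905* peak and 70.4% in the *Cpq* peak had another copy.

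The set was small beside each mutant's own list. MommeD43-GFP minus control was at most -1 at 1547 autosomal peaks (0.712% of those measured) and null minus control at 3947 (1.82%). The 319 members were 20.6% of the first list and 8.08% of the second. These counts follow from the rule and are given as a description. The other corner held 2401 of the 217130 autosomal peaks, at least 2-fold above the control in both mutants. Both corners share the control value, and a peak high in both mutants could be called through either mutant. The counts of the corners are therefore not compared.

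**Figure D1:**
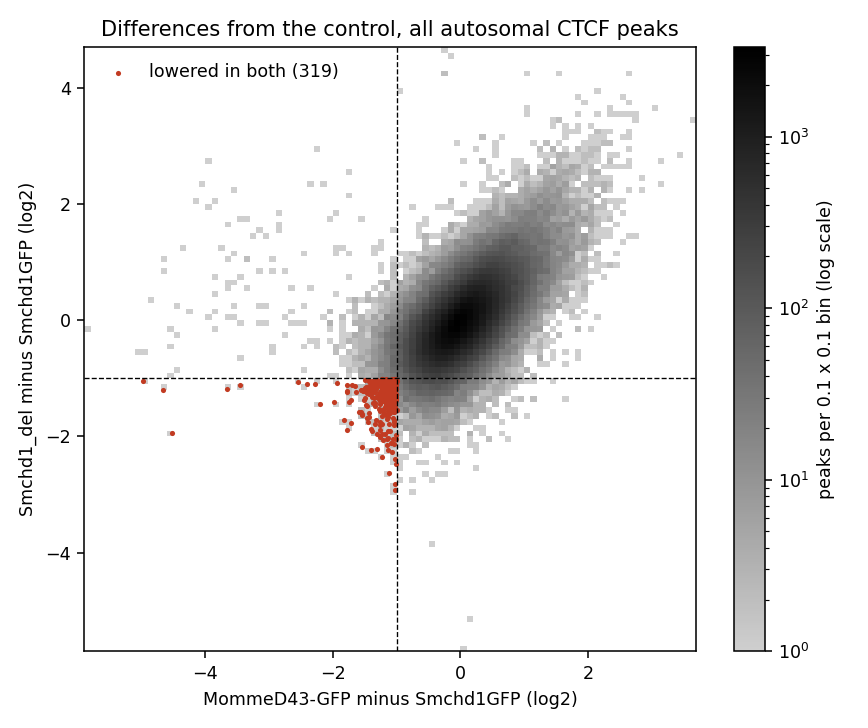
Difference from the control on the log2 scale for every autosomal peak, MommeD43-GFP on the horizontal axis and the null on the vertical axis, in bins shaded by the number of peaks on a log scale, with dashed lines at -1. The 319 members, drawn as single points, crowd against both lines, with a few far to the left and a few far down.

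Most members sat just past the threshold. The median difference was -1.15 in MommeD43-GFP and -1.24 in the null, against medians of 0.01 and -0.04 over all autosomal peaks. Asking for both differences at most -1.1 left 168 peaks, at most -1.2 left 76, at most -1.5 left 9 and at most -2 left 0, while relaxing to -0.9 gave 599. The members just inside were an intronic peak of *Me3* (-0.57, -1.57 and -1.60 in control, MommeD43-GFP and null), an exonic peak of *Spin1* (-1.04, -2.04 and -2.58) and a peak near *Gm24551* (0.09, -1.14 and -0.91). Just outside were peaks of *Prune2* (-0.70, -1.70 and -1.79), a gene-poor stretch of chromosome 6 (-1.31, -2.31 and -2.85) and *Gm9293* (-0.75, -1.75 and -2.63). The peaks on either side of the line could not be told apart at their depth.

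The levels of the members were low in the control as well. The control level ran from -1.53 to 0.52 with a median of -0.90, and 268 members (84.0%) lay under the autosomal median of -0.46. Low control levels were shared by the peaks lowered in MommeD43-GFP only (median -0.93), lowered in the null only (-0.75) and raised in both (-2.44). The members' median level was -2.13 in MommeD43-GFP and -2.24 in the null. None of the 50163 autosomal peaks (23.1%) above the highest member's control level belonged to the set, and neither did the 20852 (9.60%) below the lowest. Peaks were called in each genotype, and a member could enter through the control call alone, which may limit how low its control level lay. This was not tested. The rate fell with the control level, from 3.31 members per 1000 peaks between -1.6 and -1.2 to 2.99, 2.44 and 1.18 in the next 3 bands and 0.3997 between 0 and 0.6.

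**Figure D2:**
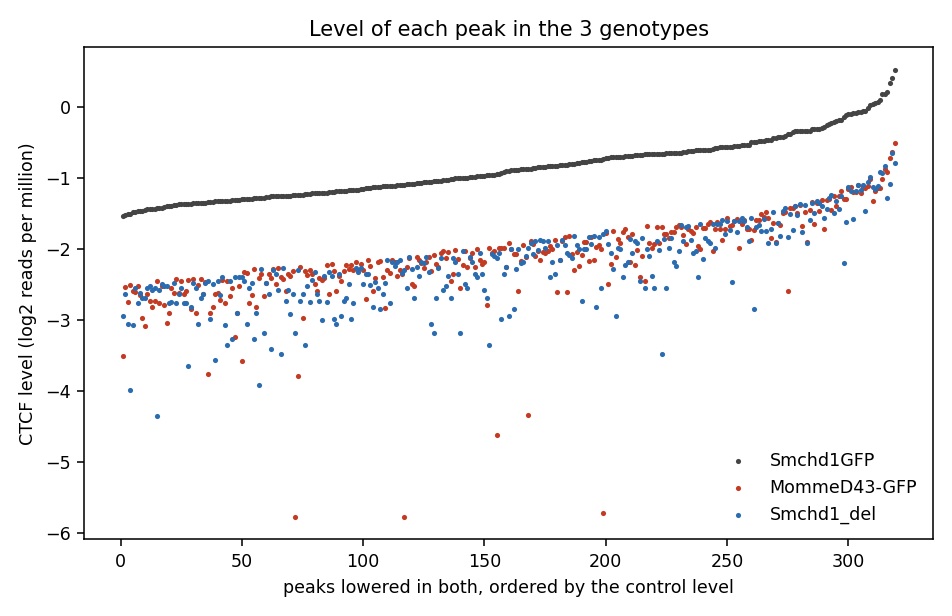
CTCF level in log2 RPM of each of the 319 members in the 3 genotypes, 1 column of points per peak, ordered by control level. The mutant points run together about 1 unit under the control, and the lowest MommeD43-GFP points reach -5.77.

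In reads, a typical member had 22.3 per control library (range 14.4 to 59.7), 11.2 per MommeD43-GFP library (0.9, the value entered for 0 reads, to 34.4) and 10.6 per null library (2.45 to 31.9). The same medians over all autosomal peaks were 30.3, 35.2 and 34.9. The counting error of the difference had a median of 0.31 for MommeD43-GFP and 0.36 for the null. Against errors of this size, 2 members lay below -1 by more than 2 errors in both mutants. The geometric mean library size recovered from the table was 41.7 M reads for the control, 49.2 M for MommeD43-GFP and 49.98 M for the null.

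**Figure D3:**
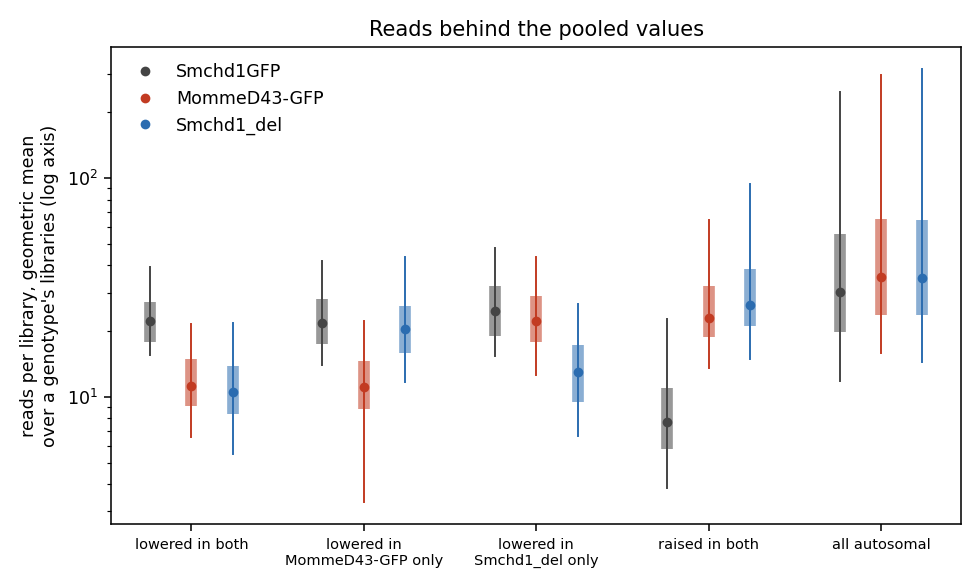
Geometric mean reads per library, on a log axis, in each genotype for the members, for peaks lowered in 1 mutant only, for peaks raised in both and for all autosomal peaks; points are medians, thick bars the middle 50% and thin lines the 5th to 95th percentiles of the peaks. The members' mutant medians of 11.2 and 10.6 reads lie below the control median of 22.3.

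The product of counts also limits how alike the libraries of a genotype can have been. The most even whole counts that give the product had a highest to lowest ratio with a median of 1.44 for the control, 1.60 for MommeD43-GFP and 1.43 for the null. This ratio was above 2 at 25 members for the control, 54 for MommeD43-GFP and 48 for the null, so at those members the counts of a genotype's libraries differed at least 2-fold before any allowance for library size. The true counts may be less even. At 5 members MommeD43-GFP needed a library at 0 reads, and no member needed one in the control or in the null.

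Both mutants had to lie at least 2-fold below 1 shared control value, and most members sat just past that line, so the rule itself keeps the mutants near each other. As a description, MommeD43-GFP minus null had a median of 0.07, MommeD43-GFP was the lower of the pair at 125 members, and at 299 the pair lay within 2 counting errors. The other 20 included both directions. In MommeD43-GFP, 9 members were at least 4-fold below the control, and in the null 20 were. No member was that low in both. At a 300-bp peak near *Suv39h2*, which encodes a histone H3K9 methyltransferase, the levels were -1.43 in the control, -2.45 in MommeD43-GFP cells and -4.35 in null cells. At a peak near *Gm8825* they were -0.67, -1.69 and -3.48. The null was the lower mutant in both of these peaks.

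The highest members were led by an exonic peak of *Srek1ip1*, which encodes a partner of a splicing regulator (chr13:104836651-104838150). It was also the longest member, at 1500 bp, and stood at 0.52 in the control, -0.52 in MommeD43-GFP cells and -0.79 in null cells, differences of -1.03 ± 0.18 and -1.31 ± 0.22. An intronic peak of *Prim2*, the large subunit of DNA primase (chr1:33468001-33469050), followed at 0.40, -0.64 and -0.65. A peak 220 bases from a start of the olfactory receptor gene *Olfr1339* (chr4:118734751-118735650) came next, at 0.33, -0.73 and -1.09. All 3 were free or nearly free of multi-copy words, at 4.76%, 0% and 0%. The other 7 of the 10 highest lay between genes, with control levels of 0.03 to 0.21, and the nearest starts within 50 kb belonged to *Gm14403*, *Gm8109*, *Gm23824*, *Gm24551*, *Gm47598* and *5730437C11Rik*, while 1 had none. Among these 7 the share of multi-copy words ran from 0% to 75%, the highest being near *Gm24551* (75%), *Gm14403* (52.0%) and *Gm47598* (47.2%).

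Among members at or above the autosomal median in the control, the rule for large differences named 8 peaks. The peak near *Tnfrsf11b*, which encodes osteoprotegerin, had -0.39 in the control, -2.59 in MommeD43-GFP cells and -1.83 in null cells, differences of -2.20 ± 0.33 and -1.44 ± 0.31. The peak near *Gm38305* had -0.34, -1.90 and -1.91, and 73.6% of its words had another copy. The peak 7487 bases from a start of *Gria1*, an AMPA-type glutamate receptor subunit, had -0.29, -1.72 and -1.57, with differences of -1.43 ± 0.26 and -1.28 ± 0.29. An exonic peak of *Nsrp1*, a splicing regulator, had -0.43 in the control and -1.63 in each mutant. The rest were near *Gm47598* and *Gm22986* or had no gene start within 50 kb, and their higher differences lay between -1.46 and -1.21.

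The members were short peaks, though not the only set that was. Peak lengths in the table are multiples of 150 bp from 300 bp, and 137 members (42.9%) had the minimum against 14.49% of all autosomal peaks and 12.2% of the peaks with a control level in the members' range. The median was 450 bp against 750 bp in both of those sets. The minimum was also common among peaks lowered in MommeD43-GFP only (39.8%, median 450 bp), peaks lowered in the null only (27.6%, median 600 bp) and peaks raised in both mutants (39.6%, median 450 bp). The shortest members with the highest control level were an exonic peak of *Map4k5*, which encodes a stress kinase, at -0.07, -1.22 and -1.17, an intronic peak of *Mms22l*, a factor of replication fork repair, at -0.82, -2.61 and -2.06, and a peak near *Gm12420* at -0.83, -2.61 and -1.95. Values are not divided by length, so level and length cannot be read separately. Peaks were called in each genotype and merged, so a peak low in both mutants could enter the table through the control call alone. How far this shaped the members' lengths was not tested.

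None of the 319 members held the core CTCF motif, with an exact binomial 95% interval from 0% to 1.15%. The share was 3.83% in all autosomal peaks, 0.860% in peaks of the same control range and 4.998% in the peaks raised in both mutants. The share rose with length, and in the control range the core motif was found in 0.0673% of 300-bp peaks, 0.117% of 450-bp peaks, 0.306% of 600-bp peaks and 0.947% of 750-bp peaks. At those shares a count of 0 among this many short peaks says little. The relaxed form occurred in 5 members (1.57%) against 8.48% of the control range and 17.2% of all autosomal peaks. Its share also rose with length in the control range. At 300 bp it was in 0.730% of members against 1.51% of the control range. At 450, 600 and 750 bp the shares were 0%, 3.45% and 0% against 2.64%, 4.39% and 9.61%. These member shares rest on 1, 0, 3 and 0 peaks, so the comparison without length overstates the gap. A motif match is a match of letters and not a measured binding site.

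Sequence present elsewhere in the genome was common in the set. More than 50% of the sampled 32-base words had another copy in 78 members (24.5%), against 3.94% of the peaks in the control range and 3.36% of all autosomal peaks. The share was 15.6% among peaks lowered in MommeD43-GFP only, 12.5% among those lowered in the null only and 3.46% among those raised in both. At a fixed length the gap remained, with 32.8% of the 300-bp members against 8.97% of 300-bp peaks in the control range. Repeat-masked bases covered a median of 34.3% of a member and 15.9% of an autosomal peak. The median was 20% for peaks lowered in MommeD43-GFP only, 20.7% for those lowered in the null only and 14.7% for those raised in both. Median GC content was 45.3% in members and 47.8% in all autosomal peaks. In the same 3 sets it was 46.7%, 47.3% and 44.3%, so the lowest median was that of peaks raised in both. The authors ran Bowtie2 at its default settings, under which a read with several equally good places is put at 1 of them. Any later filter on such reads is not given in the sources used here, and the part of these copies in the result was not tested.

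**Figure D4:**
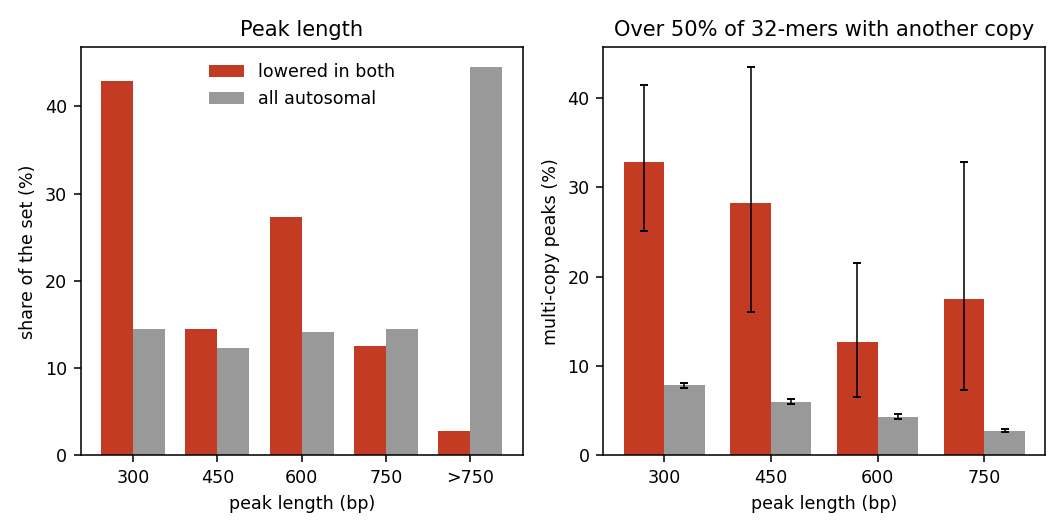
Left, share of peaks at each length in bp for the members and for all autosomal peaks. Right, share of multi-copy peaks at each length, with exact binomial 95% intervals that cover counting error only: 32.8% of the 300-bp members lie beside 7.84% of all 300-bp peaks.

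The 78 multi-copy members had median differences of -1.19 in MommeD43-GFP and -1.30 in the null, and the 121 members with no copied word had -1.14 and -1.22. The rule set these differences, which all end at -1, so nothing is read from how near the medians are. Of the 9 members at least 4-fold lower in MommeD43-GFP, 7 were multi-copy, as were 8 of the 20 in the null.

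The members lay farther from genes than the average peak, as did the peaks lowered in 1 mutant only. By GENCODE annotation 176 were intergenic (55.2%, against 39.8% of all autosomal peaks), 102 intronic (31.97% against 35.8%), 24 exonic (7.52% against 11.4%) and 17 within 1 kb of a transcript start (5.33% against 13.01%). In the control range these shares were 42.3%, 38.7%, 9.88% and 9.11%. At 300 bp the promoter share was 5.84% of members against 6.24% of the control range, so the promoter gap there was small. At 450, 600 and 750 bp it was 0%, 5.75% and 2.5% against 6.97%, 7.94% and 8.97%. The intergenic shares at 300, 450, 600 and 750 bp were 52.6%, 56.5%, 57.5% and 60% against 46.8%, 46.1%, 45.0% and 41.8%. The intergenic share was 50.5% among peaks lowered in MommeD43-GFP only and 50.9% among those lowered in the null only. The median distance to a start of a protein-coding gene was 59598 bases for the members, 58043 and 58044 bases for the peaks lowered in MommeD43-GFP only and in the null only, 36.4 kb in the control range and 29.0 kb over all autosomal peaks. Of the members, 57 members had no gene and no start within 50 kb. A pseudogene was the assigned gene of 62 members (19.4%), against 10.9% of all autosomal peaks. The 262 members with a gene were assigned to 256 genes, and 6 genes had more than 1 member: *Cntn4*, *Csmd3*, *Bbx*, *Efna5*, *Msh3* and *Gm9259*.

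Of the 17 promoter members, 10 belonged to protein-coding genes. *Zfp990*, a zinc finger gene, had -0.10 in the control, -1.13 in MommeD43-GFP cells and -1.19 in null cells. *Limch1*, which encodes an actin-associated protein, had -0.41, -1.49 and -1.43. *Prdm6*, a PR-domain factor of smooth muscle, had -0.47, -1.57 and -1.92. *Chd8*, a chromatin remodeller, had -0.78, -1.91 and -2.01, differences of -1.13 ± 0.29 and -1.23 ± 0.34. The promoter peaks of *Cacna2d1*, a calcium channel subunit, and *Adgrv1*, an adhesion receptor of sensory cells, had control levels of -1.11 and -1.21. *Vmn1r201*, a vomeronasal receptor gene, had -0.66, -1.79 and -2.56. *Krtap6-1*, a hair keratin-associated gene, had -1.26, -2.39 and -3.48, and *Scgb1b12*, a secretoglobin gene, had -1.30, -2.76 and -2.56. Most words had another copy at the peaks of *Scgb1b12* (74.1%), *Zfp990* (65.5%) and *Krtap6-1* (51.9%). At the other promoter members of protein-coding genes the share ran from 0% to 28.1%. With *Olfr1339*, these 10 peaks spanned control levels from -1.30 to 0.33.

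Most of the gene lists held between 0 and 4 members, to be read against 1.47 members per 1000 autosomal peaks. Olfactory receptor genes had 4 members among 1517 peaks (*Olfr1339*, *Olfr188-ps1*, *Olfr712-ps1* and *Olfr965*), vomeronasal receptor genes 3 of 630, keratin genes 1 of 173 and zinc finger genes 3 of 1701 (*Zfp457*, *Zfp804a* and *Zfp990*). The clustered genes known as SMCHD1 targets had 0 of 104 and imprinted genes 0 of 435. The median control level of the SMCHD1 target peaks, 0.55, lay above the highest member's 0.52, where no autosomal peak belonged to the set. Solute carriers had 0 of 2668, neural stem cell genes 0 of 591, and the CTCF, cohesin and SMCHD1 machinery 0 of 112. The rates were 2.64 per 1000 for olfactory receptor genes, 4.76 for vomeronasal receptor genes, 5.78 for keratin genes and 1.76 for zinc finger genes. Each was above that of all autosomal peaks but rested on 1 to 4 members. Median control levels of these lists were -0.82, -0.91, -0.22 and -0.31 in the same order. Autosomal peaks of any gene held 2.44 to 2.99 members per 1000 between -1.2 and -0.4 and 1.18 between -0.4 and 0. The olfactory rate lay within the first range, and the other rates lay above those of the bands that held their lists' medians. A list's peaks may span several bands, and no rate matched on level was computed. With 1 to 4 members per list, nothing is read from these gaps. Most of the other lists hold too few peaks for a count of 0 to be read.

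Genes of neural adhesion, guidance and synapses had 13 members among 4737 peaks, 2.74 per 1000 against 1.47 per 1000 over all autosomal peaks. Their peaks had a median control level of -0.82, and autosomal peaks of any gene with control levels between -1.2 and -0.4 held 2.44 to 2.99 members per 1000, a range that holds the rate of this list. The list had median differences of 0.02 in MommeD43-GFP and 0.01 in the null, next to 0.01 and -0.04 over all peaks. The members included peaks in or near *Gria1*, *Kcnip4*, *Grm8*, *Cntn4*, *Csmd3*, *Dlg2*, *Pcdh17*, *Robo1* and *Tenm2*. *Kcnip4*, which encodes a partner of potassium channels, had -0.35 in the control, -1.49 in MommeD43-GFP cells and -1.39 in null cells at an exonic peak. *Grm8*, a metabotropic glutamate receptor, had -0.42, -1.50 and -1.47 at an intronic peak in which 62.5% of words had another copy. *Rbfox1*, a neuronal splicing factor, was the 1 member among 423 peaks of neuron marker genes, at -0.70, -1.72 and -2.23. The very long fragile site genes had 2 of 996, among them *Pard3b* at -0.35, -1.43 and -1.74. Astrocyte and oligodendrocyte markers had 0 of 90, microglia and blood markers 0 of 22, and vascular and fibroblast markers 0 of 87.

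Members were mostly isolated peaks. Joining members up to 100 kb apart placed 13 of them (4.08%) in 6 clusters, the largest of 3. That cluster lay on chromosome 12, with 2 peaks at *Gm9259* and 1 near *Gm22189*, all more than 50% multi-copy. The peak near *Gm22189* had -1.35 in the control, -3.76 in MommeD43-GFP cells and -2.45 in null cells. The 2 peaks of *Msh3*, a mismatch repair gene, were single copy and had 0.02, -1.02 and -0.99 and -1.09, -2.13 and -2.12 in the same order. The 629 nearest peaks on either side of the members that were not members themselves had median differences of -0.02 and -0.03. Of these, 2.23% and 3.97% were lowered 2-fold in MommeD43-GFP and in the null, against 0.712% and 1.82% of all autosomal peaks. Their median control level was -0.89, below the -0.46 of all autosomal peaks, and shares at a matched level were not computed.

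**Figure D5:**
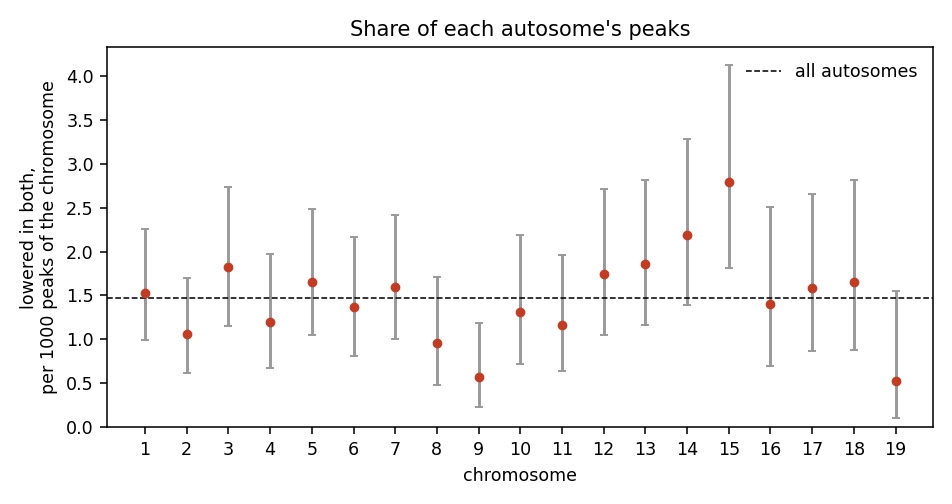
Members per 1000 peaks of each autosome, with exact binomial 95% intervals that cover counting error only, and the rate over all autosomes as a dashed line. Chromosome 15 is highest at 2.79 and chromosome 19 lowest at 0.530.

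Members were found on every autosome, from 0.530 per 1000 peaks on chromosome 19 (3 members) and 0.574 on chromosome 9 (7 members) to 2.19 on chromosome 14 (23 members) and 2.79 on chromosome 15 (25 members). On chromosome 15, 18 of the 25 lay between 30 and 60 Mb, a stretch singled out after its values were seen. There 7.78 of 1000 peaks were members, against 1.40 elsewhere on the autosomes. The stretch also held 6 of the 9 members that were at least 4-fold lower in MommeD43-GFP. At a 450-bp peak 9315 bases from a start of *Tmem74*, a gene of an autophagy-related membrane protein, the levels were -0.74 in the control, -5.72 in MommeD43-GFP cells and -1.79 in null cells, with 1 read over the 3 MommeD43-GFP libraries by the product of counts. Near *Tspyl5* they were -0.96, -4.62 and -2.13, and the product of counts there was that of 2 reads in each MommeD43-GFP library. A pair of intergenic peaks at chr15:50469601-50469900 and chr15:50482951-50483400 had -1.24, -3.79 and -2.29 and -0.97, -2.79 and -2.69. Most of the words in these 4 peaks had other copies, from 66.7% to 96.3%. Over all peaks of the stretch, MommeD43-GFP was at least 4-fold lower at 27 of 2315 peaks (11.7 per 1000, against 0.321 elsewhere), and the null at 2 (0.864 against 0.344). The median difference of all its peaks was -0.04 in MommeD43-GFP and 0.01 in the null.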

How the data were processed

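Per the submitters' processing notes and the study's methods, the authors trimmed reads with Trim Galore 0.4.4 and cutadapt 2.9, mapped them to GRCm38 with Bowtie2 2.3.4.1 at default settings, extended them in SeqMonk, called peaks on the pooled libraries of each genotype and merged the overlapping ones. The deposited table gives, per merged peak, 1 log2 value per genotype, the authors' mean of log2 RPM over 3, 3 and 2 libraries. Removal of duplicates and any filter on multi-mapping reads are not given in the sources used here. Differences were taken from these values with no test, since the table holds no single libraries. Products of library counts were recovered with a tolerance of 0.05 of a whole number, a library at 0 being entered as 0.9; the procedure was checked on simulated data. Peaks were annotated with GENCODE M21 (start window 1 kb, nearest start within 50 kb), and each peak's 32-base words, sampled every 10 bases, were counted in the genome. Intervals are exact binomial at 95% and cover counting error only. Named peaks were the highest, the most lowered, the promoter, longest, shortest, threshold, clustered, listed and 0-read members; members outside this rule (*4930584F24Rik*, *Suv39h2*, *Gm8825*, *Tspyl5* and those with the relaxed motif) were chosen after their values were seen. The members and gene lists were chosen with earlier results of these data known. Python 3.11.15, pandas 2.3.3, scipy 1.17.1 and pysam 0.24.0 were used. Members not named are given by counts and ranges, and some items are not reported here.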

Additional observations from a re-analysis of the deposited data

How the results depend on the processing

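Of 105 values recomputed under an alternative, 64 stayed within 1.5 times the count, or within the 95% interval of the median or share, and 41 moved. Some of the 64 could not have moved. Keeping peaks of 300 bp or longer removed none of the 319 members, so its values were fixed. The core motif share of 0 could not rise in settings that only kept some of the members. The 64 are therefore no measure of stability. The number of members moved most: 5027 at a 1.5-fold threshold, 0 at 4-fold, 482 after removing a loess trend of the difference on level (299 of them members here), 38 with log2(RPM + 0.1), 0 with log2(RPM + 1), 4 among peaks at or above the median mean level and 2 with both differences below -1 by over 2 counting errors; these strict settings keep few peaks. Centring the columns (249) and quantile normalization (432, 286 shared) stayed within 1.5 times. So did leaving out peaks that needed a library at 0 reads (314) and adding the X (335). Leaving out multi-copy peaks (241), an alternative added after seeing the data, did too. The scalings moved the median difference of all autosomal peaks by under 0.1.

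At 1.5-fold, the median control level was -0.61, the median length 600 bp, GC content 46.9%, the share in clusters 41.6%, the multi-copy share 10.8% and the intergenic share 48.6%. Quantile normalization gave -1.10 and 300 bp for level and length, and the loess trend -1.14, 300 bp and 7.68% in clusters. With log2(RPM + 0.1) the level was -0.70, the length 600 bp, GC content 46.1%, the multi-copy share 18.4% and the intergenic share 68.4%. The 4 peaks at or above the median mean level had a level of 0.36, a length of 975 bp, 25% promoter peaks, GC content of 46.2%, 0% in clusters, 0% multi-copy and 25% intergenic. The 2 peaks past the counting margin had -0.68, 600 bp, 0% promoter peaks, GC content of 41.7%, 0% in clusters and 0% multi-copy. Leaving out multi-copy peaks gave a GC content of 44.3%. A start window of 2500 bp gave 10.7% promoter members, the relaxed motif 1.57%, and cluster gaps of 20000 and 500000 bp 1.88% and 21.0%. Apart from the settings' own construction, the cause of these shifts was not tested. The intergenic, cluster and multi-copy shares under these settings were added after seeing the data.

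No paired analysis was possible because the table gives 1 pooled value per genotype; for the same reason no library could be left out. At about 11 reads per mutant library, differences near the threshold cannot be ordered.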
